A study of Mus musculus with 6 samples.

Results

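Thy1, Pdpn, Fap, Dpt, Pi16, Cspg4, Rgs5, Mcam and Eng are 9 genes used to recognise fibroblasts and pericytes. They were chosen by symbol, with earlier results of these data known, and all 9 were found among the 25978 genes of the deposited table. The 6 libraries were made from YFP-positive cells sorted from primary pancreatic tumours of KPCY mice, 3 libraries from EpCAM+ cells and 3 from EpCAM- cells. EpCAM is an adhesion protein on the surface of epithelial cells. The mice of both groups carried Pdx1-Cre, Trp53fl/fl and Rosa26LSL-YFP on a C57BL/6 background and were 5 to 7 weeks old. Pdx1-Cre is active in the pancreatic lineage, so the YFP mark labels normal pancreatic epithelium and its descendants as well as tumour cells, and is not a mark of host fibroblasts.

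Fibroblasts build and remodel the matrix of a tissue, and pericytes wrap small blood vessels. In pancreatic cancer, fibroblasts form much of the dense stroma around the tumour cells, and epithelial tumour cells that turn mesenchymal can take on RNAs that are otherwise read as fibroblast markers. Thy1, Pdpn, Fap, Dpt and Pi16 serve as fibroblast markers, and Cspg4, Rgs5, Mcam and Eng are used for pericytes or other cells of the vessel wall. Most of the encoded proteins sit at the cell surface, but dermatopontin (Dpt) is secreted into the matrix and Rgs5 acts inside the cell.

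Of the 9 genes, 4 rose in EpCAM- cells (Thy1, Dpt, Pdpn and Cspg4), 1 fell (Rgs5) and 4 did not pass the test (Pi16, Fap, Eng and Mcam). The call was a limma p under 0.05 after Benjamini-Hochberg adjustment over 15783 tested genes with a mean of at least 10 after the log2 scale was undone. All 9 genes met this filter. The same test called 43.4% of all tested genes, 20.3% higher and 23.1% lower in EpCAM- cells, against 44.4% of the 9 genes higher and 11.1% lower. The counts given below for lists of genes are to be read against these shares of all tested genes. Some genes are on several lists, such as Pdgfrb on the fibroblast, pericyte and Mcam partner lists. Counts of different lists are therefore not separate observations. The median difference, EpCAM- minus EpCAM+, was 2.09 on the log2 scale for the 9 genes and 0.0043 for all tested genes. In bulk RNA, a difference in the number of cells of a type cannot be told apart from a difference in RNA per cell.

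**Figure D1:**
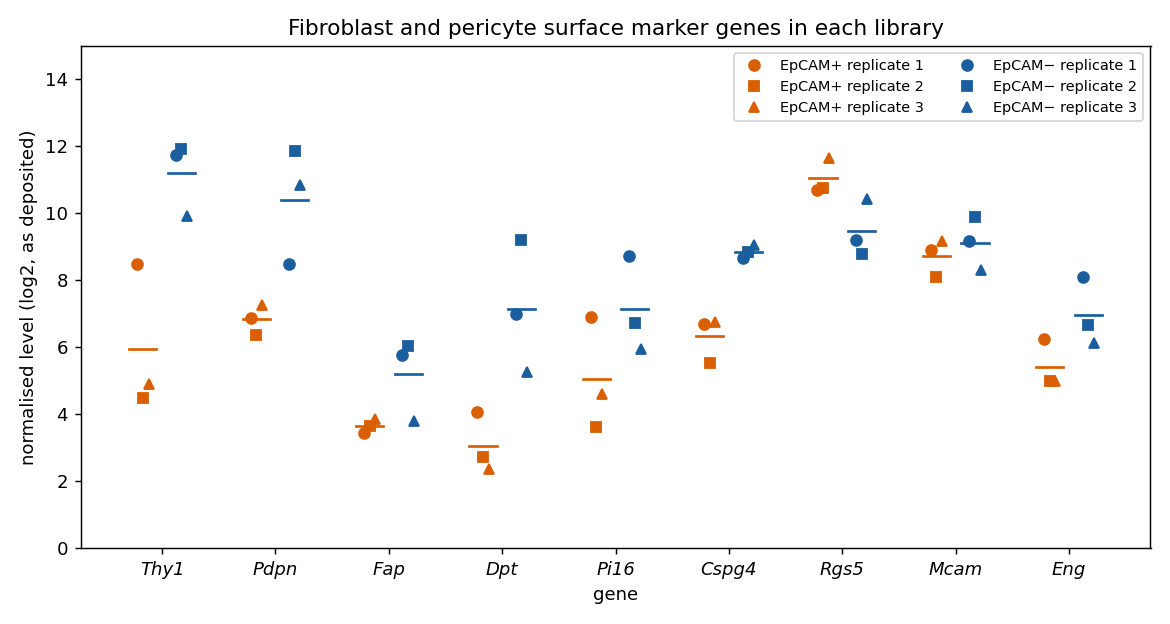
Normalised log2 level (vertical axis, as deposited) of each of the 9 genes in the 6 libraries. Symbols mark the replicate, colours the group and short lines the group means (n = 3); the groups did not overlap for Thy1, Pdpn, Dpt, Cspg4 and Rgs5.

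In 5 of the 9 genes (55.6%) the values of the groups stayed apart, against 56.3% of all tested genes. Of these, 4 were higher in EpCAM- cells, a pattern seen in 27.1% of tested genes, and 1 was lower, seen in 29.2%. The number of genes that rose lay between 3 and 6 over the alternatives that left out libraries. It was 3 without EpCAM+ replicate 3. It was 6 when EpCAM+ replicate 1, EpCAM- replicate 3 or both were removed. Rgs5 lost its call when any of EpCAM+ replicates 2 and 3 or EpCAM- replicates 1 and 2 was removed, leaving 0 genes that fell.

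Epcam itself was 15.06, 14.90 and 14.89 among the EpCAM+ libraries, against 8.42, 8.22 and 7.22 for EpCAM-, as the sort labels have it. The deposited values are normalised log2 levels, and the depth of the libraries is unknown. A pair of libraries stood apart in stromal genes. The mean log2 level of 12 general fibroblast genes was 7.96 in EpCAM+ replicate 1 against 5.91 and 6.09 in EpCAM+ replicates 2 and 3, and 8.82 in EpCAM- replicate 3 against 10.37 in both other EpCAM- libraries. Many calls and counts that moved when single libraries were removed are given beside the results, but not all.

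Sequence upstream of the start site is shown for the called genes that have an entry in the RefSeq promoter table (GRCm38.p6), to set the promoters of 3 genes that rose beside that of the gene that fell. The table held 7 of the 9 genes and none for Thy1 or Fap. Each run ends before the first base of the gene in both RefSeq and GENCODE and reads 5′ to 3′ on the strand of the gene. Capitals mark the searched E-box spellings in Dpt and the GC boxes of Cspg4, on either strand.
Dpt (chr1:164796413-164796643, plus strand): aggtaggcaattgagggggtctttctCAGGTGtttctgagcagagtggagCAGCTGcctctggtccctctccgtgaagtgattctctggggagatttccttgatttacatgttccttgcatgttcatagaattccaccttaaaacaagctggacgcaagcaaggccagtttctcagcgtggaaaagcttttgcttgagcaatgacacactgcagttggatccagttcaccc
Pdpn (chr4:143299565-143299814, minus strand): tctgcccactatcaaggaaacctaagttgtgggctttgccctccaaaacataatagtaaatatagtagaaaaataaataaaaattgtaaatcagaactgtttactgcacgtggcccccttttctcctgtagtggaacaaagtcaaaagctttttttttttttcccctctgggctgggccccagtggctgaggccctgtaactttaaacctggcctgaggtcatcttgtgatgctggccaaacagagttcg
Cspg4 (chr9:56864854-56865032, plus strand): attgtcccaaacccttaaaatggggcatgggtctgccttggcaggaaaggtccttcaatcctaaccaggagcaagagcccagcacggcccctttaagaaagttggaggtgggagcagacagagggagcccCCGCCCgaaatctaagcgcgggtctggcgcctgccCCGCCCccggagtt
Rgs5 (chr1:169655251-169655500, plus strand): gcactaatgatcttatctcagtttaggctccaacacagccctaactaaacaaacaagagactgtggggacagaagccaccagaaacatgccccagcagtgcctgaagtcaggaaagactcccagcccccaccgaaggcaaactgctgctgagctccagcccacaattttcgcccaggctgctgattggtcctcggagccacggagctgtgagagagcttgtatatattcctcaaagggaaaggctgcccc

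The motifs searched on both strands were the E-box CACCTG, a further E-box spelled CAGCTG, the TATA box TATAAA, the GC box GGGCGG and the cyclic AMP element TGACGTCA, chosen after the sequences were seen. In the 250 bases before the RefSeq start, Dpt held an E-box of each kind, at positions -224 to -219 and -200 to -195 from the start. Of 32851 promoter windows of that length, 17.2% held the first E-box and 13.0% the other. Cspg4 held 2 GC boxes, which 32.7% of all windows held at least once (TATA box, 12.4%). Pdpn, Rgs5, Eng and Pi16 had no match to any of the 5 motifs in these exact spellings, and other spellings were not searched. The run of Pdpn holds CACGTG, a further E-box spelling, and that of Rgs5 holds TATATA, close to the searched TATA box. Mcam, the gene whose RNA differed least between the groups, held the first E-box, 5 GC boxes and the cyclic AMP element, which 1.5% of windows held. All of these but the E-box lay past the first base of Mcam in GENCODE. The whole window of Pi16 also lay past the first base of its gene in GENCODE. The Mcam window had a GC content of 73.6% and a CpG ratio (observed over expected) of 0.74, against medians of 52.4% and 0.37 over all windows. The other 6 genes had CpG ratios between 0.12 (Pi16) and 0.53 (Cspg4). A match is a description of the letters, not a measured binding site.

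Below, the 3 values of a group follow the order of its replicates. Thy1 rose most of the 9 genes. It encodes Thy-1 (CD90), a small glycoprotein held in the membrane by a lipid anchor and found on fibroblasts, neurons and mouse T cells (ENSMUSG00000032011, GRCm38 chromosome 9, 44043384 to 44048579). Thy1 stood at 8.50, 4.48 and 4.90 on the log2 scale in the EpCAM+ libraries, and at 11.75, 11.91 and 9.92 in the EpCAM- libraries. EpCAM+ replicate 1 was far above the other EpCAM+ libraries, yet below every EpCAM- library. The difference was 5.24 ± 1.09 (SE), or 37.7-fold, with a limma adjusted p of 0.0076. With neither EpCAM+ replicate 1 nor EpCAM- replicate 3 it was 7.14 ± 0.24 (SE), and the adjusted p was 0.000134. Those libraries held the highest EpCAM+ and the lowest EpCAM- value of Thy1, so leaving them out could only widen the difference.

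T cells also carry Thy1 RNA, and the levels of their genes are given beside it. Of the genes of the T cell receptor complex, Cd3e lay between -1.51 and -1.40, Cd3g between -1.52 and -1.45 and Cd3d between -0.30 and -0.018, where the lowest value of the table was -1.52. Ptprc, which all white blood cells express, lay between 3.67 and 7.64, and Lck between 3.48 and 4.55. The mean of 9 T cell genes ran from 1.49 to 2.07 in EpCAM+ and from 1.15 to 1.36 in EpCAM- libraries. The part of T cells in the levels of Thy1 was not tested. Known partners of Thy-1 are integrins, syndecan-4 and the adhesion receptor Adgre5. Of 8 such genes tested, 3 rose, 2 fell and 3 did not pass. The number that fell was 0 on removal of EpCAM+ replicate 3 or EpCAM- replicate 3 and 1 on removal of EpCAM+ replicate 1. With neither EpCAM+ replicate 1 nor EpCAM- replicate 3, 1 rose and 0 fell. The integrin subunit genes Itgb5 (1.13 ± 0.12, SE, log2), Itgb1 (0.63) and Itgav (0.60) rose. Itgam, which is expressed in myeloid cells, fell by 2.23 on the log2 scale, and the syndecan gene Sdc4 fell by 0.46.

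Pdpn encodes podoplanin, a mucin-type protein of fibroblasts and lymphatic vessels that binds the platelet receptor CLEC-2 (ENSMUSG00000028583, chromosome 4, 143267431 to 143299564, minus strand). The EpCAM+ libraries had log2 levels of 6.87, 6.37 and 7.26 for Pdpn, against 8.50, 11.88 and 10.86 in the EpCAM- libraries. The EpCAM+ libraries were close together, and EpCAM- replicate 1 was the lowest of its group. The difference was 3.58 ± 0.79 (SE), or 11.9-fold (limma adjusted p = 0.00999). It did not pass without EpCAM+ replicate 1 and EpCAM- replicate 3, where it was 3.37 ± 1.07 (SE) with a limma adjusted p of 0.0687.

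Between libraries, Pdpn and the general fibroblast genes differed. EpCAM- replicate 3, in which those genes averaged 1.55 log2 units below the other EpCAM- libraries, had 0.67 more Pdpn than the mean of the other EpCAM- libraries. Lymphatic vessels also carry podoplanin, and 3 of the 4 tested lymphatic genes fell (Prox1 by 2.48, Flt4 by 1.39 and Lyve1 by 1.16 on the log2 scale), while Reln, a secreted glycoprotein gene, rose by 3.38. Of these lymphatic genes, 2 fell on removal of any single library other than EpCAM+ replicate 2. Prox1 and Flt4 averaged 9.12 and 10.32 in the EpCAM+ libraries. The lymphatic genes Ccl21a, between 1.67 and 2.86, and Mmrn1, between 0.81 and 1.13 in all libraries, were too low to test. The part of lymphatic endothelium in the levels of Pdpn was not tested. Of 7 tested genes for podoplanin partners, 4 rose, 1 fell and 2 did not pass. The number that rose was 2 on removal of EpCAM+ replicate 2, and 1 with neither EpCAM+ replicate 1 nor EpCAM- replicate 3. The number that fell was 0 on removal of any single library other than EpCAM- replicate 1. Podoplanin is tied to the cytoskeleton by the ezrin, radixin and moesin proteins, whose genes Msn (1.11 ± 0.23, SE, log2) and Rdx (1.08 ± 0.11, SE, log2) rose, while Ezr fell by 0.70. Rhoa and the lectin gene Lgals8 rose by 0.53 and 0.46, and Cd44 had 0.043 with an adjusted p of 0.86. Clec1b, the gene of CLEC-2, lay between 0.81 and 1.47 in all libraries and was too low to test.

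Dpt encodes dermatopontin, which binds decorin and promotes collagen fibril formation (ENSMUSG00000026574, chromosome 1, 164796644 to 164824266). Log2 levels of Dpt ran 4.08, 2.74 and 2.38 among EpCAM+ libraries and 7.00, 9.19 and 5.27 among EpCAM- libraries. The EpCAM- libraries spanned 3.92 log2 units, the widest range of any of the 9 genes in that group. The difference was 4.09 ± 0.96 (SE), or 17.0-fold (limma adjusted p = 0.0128). It lost its call without EpCAM+ replicate 3, at 3.74 ± 1.13 (SE) and an adjusted p of 0.0527. Of 5 tested genes for dermatopontin partners, 4 rose and 0 fell, and 2 rose on removal of EpCAM+ replicate 3. The 4 were decorin, Dcn (4.56 ± 0.88, SE, log2), the collagen gene Col1a1 (4.27 ± 1.03, SE, log2), fibrillin-1, Fbn1 (3.97 ± 0.56, SE, log2), and Tgfb1 (0.62). Fn1, at 0.93 with an adjusted p of 0.196, did not pass.

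Pi16 encodes a membrane-anchored member of the CAP protein superfamily and marks adventitial fibroblasts, which surround larger vessels and also express Dpt (ENSMUSG00000024011, chromosome 17, 29317680 to 29330593). Pi16 stood at 6.91, 3.62 and 4.59 on the log2 scale in the EpCAM+ libraries, and at 8.73, 6.71 and 5.96 in the EpCAM- libraries. EpCAM+ replicate 1 lay above EpCAM- replicates 2 and 3, so the groups overlapped. The difference of 2.09 ± 0.98 (SE) did not pass (limma adjusted p = 0.128). Without EpCAM+ replicate 1 it was 3.03 ± 0.82 (SE) and passed (limma adjusted p = 0.0332), as it did without that library and EpCAM- replicate 3 (3.62 ± 0.72, SE, adjusted p = 0.0168). Those libraries held the highest EpCAM+ and the lowest EpCAM- value of Pi16, so leaving them out could only widen the difference.

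Other genes of adventitial fibroblasts moved in both directions. Of 10 tested genes that accompany Pi16 and Dpt in such cells, 3 rose, 3 fell and 4 did not pass. Over all tested genes, 20.3% rose and 23.1% fell, so these counts set the list little apart. Cd34 (5.20 ± 0.84, SE, log2), the scavenging chemokine receptor gene Ackr3 (2.10 ± 0.21, SE, log2) and the complement regulator gene Cd55 (0.41) rose. Dpp4 fell by 3.29 ± 0.52 (SE), Ly6a by 1.82 ± 0.37 (SE) and Anxa3 by 1.08 ± 0.21 (SE) on the log2 scale. Without EpCAM+ replicate 1 and EpCAM- replicate 3, 2 rose and 2 fell, and 2 rose without EpCAM+ replicate 1 or without EpCAM+ replicate 2. Of 5 tested relatives of Pi16 in the CAP superfamily, Glipr2 (2.72 ± 0.48, SE, log2) and Pi15 (1.63 ± 0.37, SE, log2) rose and none fell.

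Fap encodes fibroblast activation protein, a membrane serine protease of activated fibroblasts (ENSMUSG00000000392, chromosome 2, 62500943 to 62574075, minus strand). The EpCAM+ libraries had log2 levels of 3.43, 3.66 and 3.85 for Fap, against 5.77, 6.03 and 3.81 in the EpCAM- libraries. EpCAM- replicate 3 lay within the EpCAM+ range, and the other EpCAM- libraries lay well above it. The difference of 1.55 ± 0.57 (SE) did not pass (limma adjusted p = 0.0624). Without EpCAM- replicate 3 it was 2.25 ± 0.26 (SE, limma adjusted p = 0.00118). That library was the lowest of its group, so leaving it out could only widen the difference. Dpp4, the closest relative of Fap, fell, as given above, and was the one related prolyl peptidase of 6 tested that passed. On removal of EpCAM- replicate 3, 1 of the 6 rose, and on removal of EpCAM- replicate 1, 2 fell. Dpp7, Dpp8, Dpp9, Prep and Prcp differed by between -0.30 and 0.53 and did not pass.

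Levels of different genes were compared per kilobase of exon, as the log2 level minus the log2 of the exon length in kilobases. On that scale Fap was the lowest of the 9 genes in both groups, with a mean of 1.15 ± 0.21 (SD, n = 3) for EpCAM+ and of 2.70 ± 1.21 (SD, n = 3) for EpCAM-. It exceeded 2.2% and 11.9% of tested genes there. In EpCAM- libraries Thy1 (9.61 ± 1.11, SD, n = 3) and Pdpn (9.55 ± 1.73, SD, n = 3) were highest, and exceeded 89.9% and 89.4% of tested genes. In EpCAM+ libraries Rgs5 was highest (8.86 ± 0.54, SD, n = 3) and exceeded 82.1% of tested genes, while Thy1 exceeded 22.7%. Rgs5 stood clear of Mcam, the next gene, and Dpt stood clear of Fap, in all EpCAM+ libraries. All other neighbours in the order of either group overlapped.

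**Figure D2:**
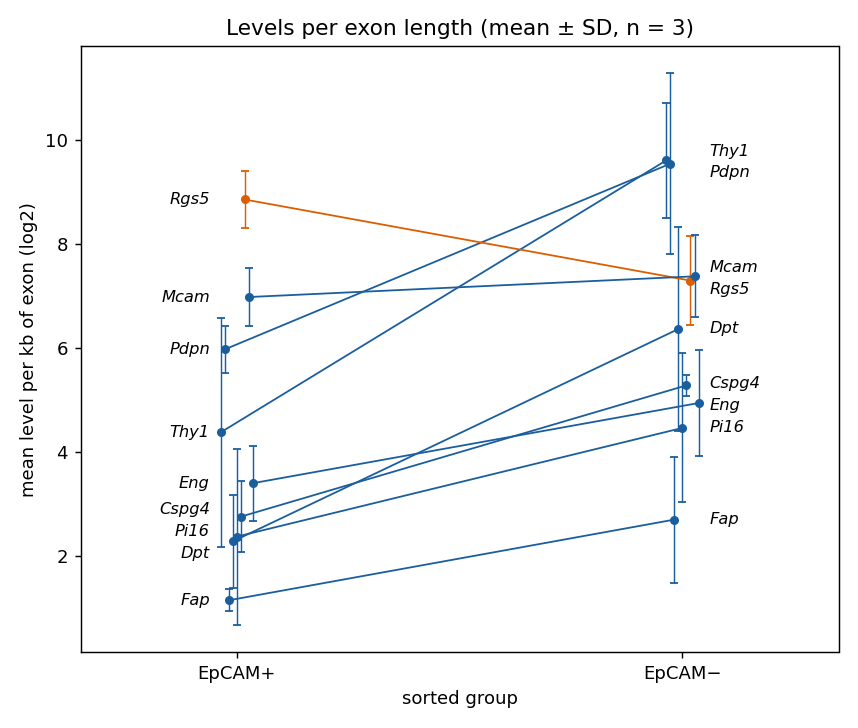
Mean level per kilobase of exon (vertical axis, log2) of the 9 genes in EpCAM+ and EpCAM- libraries, with bars for the SD (n = 3). Blue lines are genes with a higher mean in EpCAM- and the orange line is Rgs5, which came first in EpCAM+ libraries and, at 7.30, behind Thy1, Pdpn and Mcam in EpCAM- libraries; points are set slightly apart sideways for legibility.

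Cspg4 encodes NG2, a large chondroitin sulphate proteoglycan of pericytes that also occurs on tumour cells (ENSMUSG00000032911, chromosome 9, 56865033 to 56899870). Log2 levels of Cspg4 ran 6.70, 5.55 and 6.75 among EpCAM+ libraries and 8.66, 8.86 and 9.06 among EpCAM- libraries. The EpCAM- libraries spanned 0.39 log2 units, the narrowest range of the 9 genes in that group, and the gap between the groups, 1.91, was the widest. The difference was 2.53 ± 0.34 (SE), or 5.77-fold (limma adjusted p = 0.00105), and it passed under all 17 alternatives. Of 11 tested genes for NG2 partners, 7 rose, 1 fell and 3 did not pass. The number that rose was 5 or 6 on removal of any single library. The number that fell was 2 on removal of EpCAM- replicate 1, and 0 with neither EpCAM+ replicate 1 nor EpCAM- replicate 3. NG2 binds collagen VI and growth factors, and Col6a2 (2.98 ± 0.30, SE, log2), Fgf2 (2.92 ± 0.39, SE, log2) and Col6a1 (2.37 ± 0.25, SE, log2) rose. The receptor gene Pdgfra, also on the list, rose by 3.48 ± 0.54 (SE, log2). Of the intracellular scaffold partners of NG2, Mpdz rose by 1.72 and Grip1 fell by 1.42 on the log2 scale.

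Rgs5 was the only one of the 9 genes that was lower in EpCAM- cells. It encodes a GTPase-activating protein that dampens G protein signalling and is a common marker of pericytes (ENSMUSG00000026678, chromosome 1, 169655501 to 169695813). Rgs5 stood at 10.71, 10.75 and 11.66 on the log2 scale in the EpCAM+ libraries, and at 9.22, 8.79 and 10.44 in the EpCAM- libraries. The lowest EpCAM+ library was 0.27 above the highest EpCAM- library, EpCAM- replicate 3. The level was 2.95-fold lower in EpCAM- cells (-1.56 ± 0.45, SE, log2, limma adjusted p = 0.0282). The call rested on single libraries, with the direction kept. Removing EpCAM+ replicate 2 gave an adjusted p of 0.0516 and removing EpCAM+ replicate 3 gave 0.0965. Removal of EpCAM- replicate 1 gave 0.0736, and that of EpCAM- replicate 2 gave 0.0762.

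Rgs5 belongs to the R4 subfamily of RGS proteins, of which 6 other genes were tested. Rgs13 fell by 4.48 ± 0.39 (SE), Rgs3 by 1.91 ± 0.16 (SE) and Rgs4 by 1.57 ± 0.50 (SE) on the log2 scale, and Rgs16 rose by 1.65 ± 0.21 (SE). Rgs1 and Rgs2 did not pass. Kcnj8, a potassium channel gene of pericytes, lay between 1.88 and 2.99 in all libraries, and Higd1b lay between -1.52 and -1.45, near the lowest value of the table. The pericyte genes Vtn and Ndufa4l2 lay between 1.79 and 2.41 and between 2.62 and 4.09. All of these were too low to test. Some other pericyte genes reached higher levels. Abcc9 lay between 3.28 and 6.09, Des between 2.86 and 6.98 and Anpep between 8.54 and 9.74, and none of them passed. Of 9 tested pericyte genes, 3 rose (Pdgfrb by 4.13 ± 0.83, Cox4i2 by 1.65 ± 0.30 and Foxs1 by 1.36 ± 0.36, SE, log2), Notch3 fell by 1.18 ± 0.30 (SE) and 5 did not pass. The number that fell was 0 when EpCAM+ replicate 1, EpCAM+ replicate 3 or EpCAM- replicate 3 was removed. The number that rose was 2 when any of the other libraries or EpCAM+ replicate 3 was removed.

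Mcam encodes CD146, an adhesion molecule of the immunoglobulin superfamily on pericytes and endothelium (ENSMUSG00000032135, chromosome 9, 44134469 to 44142727). The EpCAM+ libraries had log2 levels of 8.90, 8.10 and 9.18 for Mcam, against 9.18, 9.88 and 8.31 in the EpCAM- libraries. The groups overlapped, with a difference of 0.40 ± 0.43 (SE) that did not pass (limma adjusted p = 0.495). A difference at least as large in either direction was seen in 54.6% of tested genes. Of 6 tested genes for Mcam partners, 5 rose and 0 fell, among them the galectin gene Lgals1 (2.30 ± 0.21, SE, log2), the laminin chain gene Lama4 (1.65 ± 0.38, SE, log2), Wnt5a (1.33 ± 0.11, SE, log2) and Kdr (1.20 ± 0.41, SE, log2, adjusted p = 0.0485). Pdgfrb was the other. On removal of EpCAM+ replicate 1 or 3, or of EpCAM- replicate 2 or 3, 4 of the 6 rose.

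Mcam and Thy1 lie 85.9 kb apart on chromosome 9, on the same strand. Thy1 passed the test and Mcam did not. Between them lie 10 gene models, of which 7 had values and 4 were tested. Rnf26, a ubiquitin ligase gene, rose by 0.53 ± 0.16 (SE, log2, adjusted p = 0.0317). Usp2 (0.53), C1qtnf5 (1.75, adjusted p = 0.202) and Gm26737 (0.57) did not pass. These genes were chosen for their position.

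Eng encodes endoglin, a co-receptor for ligands of the TGF-beta family that is best known from endothelium (ENSMUSG00000026814, chromosome 2, 32646595 to 32682669). Log2 levels of Eng ran 6.25, 5.00 and 4.99 among EpCAM+ libraries and 8.10, 6.66 and 6.12 among EpCAM- libraries. EpCAM+ replicate 1 was above EpCAM- replicate 3 by 0.14, which made the groups overlap. The difference of 1.54 ± 0.57 (SE) did not pass (limma adjusted p = 0.066). It passed without EpCAM+ replicate 1 (1.96 ± 0.58, SE, adjusted p = 0.0432), without EpCAM- replicate 3 (1.96 ± 0.57, SE, adjusted p = 0.0391) and without both (2.38 ± 0.51, SE, adjusted p = 0.0206). Those libraries held the highest EpCAM+ and the lowest EpCAM- value of Eng, so leaving them out could only widen the difference. The last bases of Eng overlap those of Fpgs on the other strand, which stood between 8.69 and 9.13 in all libraries, and the sources used here do not say whether reads were counted by strand.

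The endoglin system moved gene by gene. Of 20 tested receptors, ligands and targets, 8 rose, 2 fell and 10 did not pass. The number that rose was 4 on removal of EpCAM+ replicate 3 and 4 on removal of EpCAM- replicate 2. The number that fell was 5 on removal of EpCAM- replicate 1 and 1 on removal of EpCAM+ replicate 1 or 3. The co-receptor betaglycan, Tgfbr3, rose by 4.22 ± 0.35 (SE) on the log2 scale. Tgfb3 rose by 1.03 ± 0.19 (SE), Id3 by 1.25 ± 0.37 (SE) and Mmp14, whose product can shed endoglin, by 0.52 ± 0.15 (SE). Smad6, an inhibitor of the pathway, fell by 1.39 ± 0.26 (SE), and Acvr2b fell by 0.84 ± 0.23 (SE). Acvrl1, the endothelial receptor that endoglin assists, had -1.25 with an adjusted p of 0.0523. Its ligand genes Gdf2 and Bmp10 lay below 0 in every library and were not tested.

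**Figure D3:**
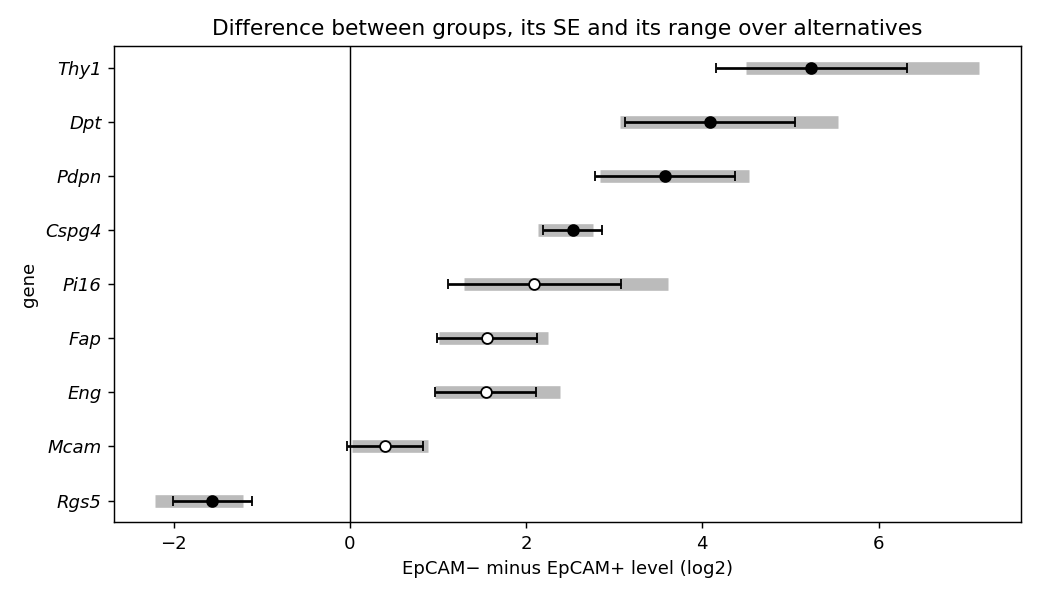
Difference between group means (horizontal axis, EpCAM- minus EpCAM+, log2) with its SE from limma (bars). Filled points passed at an adjusted p under 0.05, open points did not, and grey bands give the range over the alternatives, from 0.020 to 0.89 for Mcam and from -2.20 to -1.21 for Rgs5.

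The levels of endothelial genes are given beside Mcam and Eng, since endothelium expresses both. The mean log2 level of 14 blood endothelial genes lay between 4.17 and 4.37 for EpCAM+ and between 4.21 and 4.39 for EpCAM-. Of 9 tested, Flt1 rose by 2.00 ± 0.36 (SE) and Kdr by 1.20, Sox17 fell by 3.21 ± 0.26 (SE) and Esam by 1.43 ± 0.33 (SE), all on the log2 scale, and 5 did not pass. Pecam1 lay between 4.34 and 5.47, Cdh5 between 3.33 and 6.04 and Emcn between 0.94 and 1.29. Removing EpCAM+ replicate 1 or 3 left 1 endothelial gene that rose, and so did removing EpCAM- replicate 2 or 3. With neither EpCAM+ replicate 1 nor EpCAM- replicate 3, 1 rose and 1 fell. The part of endothelial RNA in the values of Mcam and Eng was not tested.

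**Figure D4:**
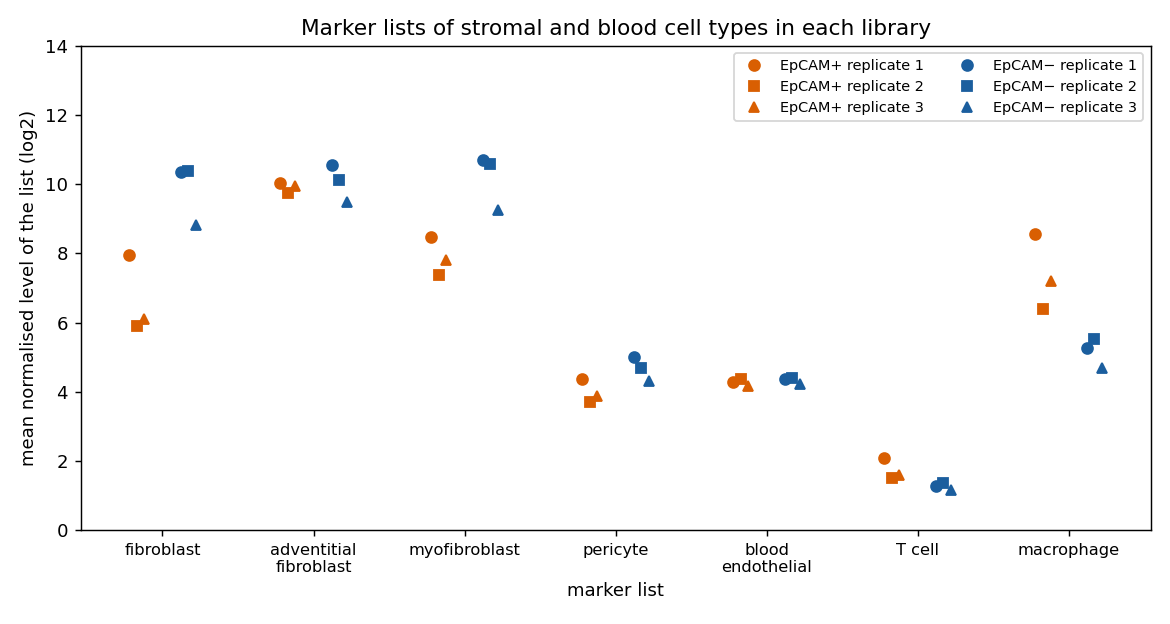
Mean normalised log2 level (vertical axis) of 7 marker lists in the 6 libraries, with symbols for the replicate and colours for the group. The fibroblast and myofibroblast lists were higher in all EpCAM- than in all EpCAM+ libraries, the macrophage list was lower, and the T cell list stayed between 1.15 and 2.07.

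The lists of fibroblast genes moved in different directions. Of 10 tested general fibroblast genes, 9 rose and 0 fell, among them Col3a1 (5.61 ± 0.99, SE, log2), Col1a2 (4.65 ± 1.09, SE, log2) and the receptor gene Pdgfra (3.48). Without EpCAM+ replicate 3 the number was 6. Of 12 tested myofibroblast genes, 8 rose and 0 fell, led by Thbs2 (5.44 ± 0.68, SE, log2), Cthrc1 (3.86 ± 0.26, SE, log2), Postn (3.63 ± 1.11, SE, log2) and Lrrc15 (2.81 ± 0.35, SE, log2). The number of myofibroblast genes that rose was 6 without EpCAM+ replicate 3 and 10 without EpCAM- replicate 3. Acta2 had 1.69 with an adjusted p of 0.249. Of 11 tested genes of inflammatory fibroblasts, 5 rose, with Has1 at 5.07 ± 0.28 and Ccl2 at 3.18 ± 0.56 (SE, log2), and C3 fell by 3.92 ± 0.55 (SE). In that list 4 to 6 genes rose over the removals of single libraries, and 2 genes fell on removal of EpCAM- replicate 2. All 6 genes of antigen-presenting fibroblasts fell, with Cd74 at -3.01 ± 0.50 and H2-Aa at -2.68 ± 0.57 (SE, log2). Many of those 6 are also expressed in macrophages, for which 10 of 11 tested genes fell, among them C1qa (-3.23 ± 0.63, SE, log2) and Lyz2 (-2.90 ± 0.64, SE, log2). That number was 5 on removal of either EpCAM+ replicate 3 or EpCAM- replicate 3. The part of fibroblasts or macrophages carried through the sort in these differences was not tested.

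The libraries that stood apart did so for some of the 9 genes and not for others. EpCAM+ replicate 1 exceeded the mean of EpCAM+ replicates 2 and 3 by 3.81 for Thy1, 2.81 for Pi16, 1.52 for Dpt and 1.25 for Eng on the log2 scale. For Cspg4, Mcam and Pdpn that excess was 0.55, 0.26 and 0.051, and for Fap and Rgs5 it was -0.33 and -0.50. General fibroblast genes averaged an excess of 1.96 in the same library, and macrophage genes 1.75. EpCAM- replicate 3 was below the mean of EpCAM- replicates 1 and 2 for 6 of the 9 genes, most for Dpt (-2.83), Fap (-2.09) and Thy1 (-1.91). It was above that mean for Rgs5 (1.44), Pdpn (0.67) and Cspg4 (0.30).

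**Figure D5:**
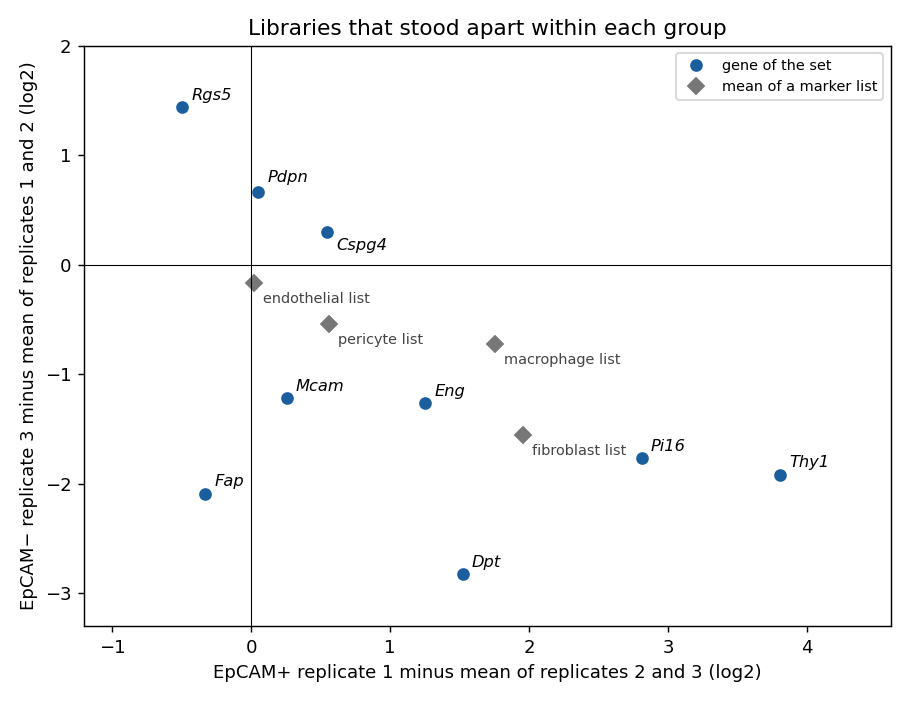
Excess of EpCAM+ replicate 1 over its group (horizontal axis, log2) against that of EpCAM- replicate 3 (vertical axis, log2), for the 9 genes (circles) and the means of 4 marker lists (diamonds). Thy1, Pi16, Dpt and Eng lie to the lower right with the fibroblast and macrophage lists, while Rgs5, Pdpn and Cspg4 lie above 0 on the vertical axis. Mcam and the pericyte and endothelial lists lie in the same quadrant, less far to the right.

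Genes with the profile most like each of the 9 were found among all tested genes by the root mean square difference of log2 levels over the 6 libraries, after each gene's mean was subtracted. For Thy1 these were Mmp2 (0.32), Col1a2 (0.41) and Col3a1 (0.43). For Dpt they were Pdgfrb (0.53), Lama2 (0.54) and Hs3st5 (0.58), and for Pdpn the genes Tro (0.55), Gm26945 (0.56) and Mirg (0.59). Pi16 was most like Sfrp1 (0.23), Cygb (0.26) and Sparcl1 (0.34). Fap was most like Timp3 (0.24), Hic1 (0.27) and Vstm2a (0.29). Eng was most like Arhgdib (0.21), Tmem100 (0.21) and C1qtnf7 (0.21). Cspg4 was most like Usp13 (0.13), Armcx4 (0.23) and Iffo1 (0.23), and Mcam like Srrm4 (0.12), A630001G21Rik (0.13) and Heg1 (0.16). Rgs5 was most like Kcnk6 (0.23), Foxa1 (0.25) and Irf8 (0.26). Among the 9 genes themselves, Pi16 and Eng were the most alike pair (0.69), and Thy1 and Rgs5 the least (3.86). With 6 libraries in 2 groups, these distances describe the profiles and were not tested.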

How the data were processed

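RNA of sorted cells was sequenced in 6 libraries, 3 per group. The submitters' processing notes name STAR 2.5.2, RSEM, DESeq2 1.24.0 and GRCm38, with no role or order. The deposited values are normalised log2 levels. Their transform and annotation are not stated in the labels, and depth is unknown. The values were tested as deposited with limma 3.58.1 (trend in the prior variance, two-sided, no covariate) in R 4.3.3, adjusted over all tested genes. Tested genes averaged 10 or more once the log2 was undone. Symbols, positions and exon lengths (union of exons) came from GENCODE M21 by Ensembl identifier (25831 matched, 147 did not). The fit was tested on simulated data. The 9 genes and the lists were chosen with earlier results of these data known. The naming rule was the 9 genes, the first 3 and up to 4 passing genes of each list, and the 3 genes most like each of the 9. It was followed in full for the 9 genes and their most alike genes, and in part for the lists, where not every gene it covers is named. Genes between Thy1 and Mcam and further list members, such as Sdc4, Lgals8, Anxa3, Cd55, Mpdz, Grip1, Tgfb3, Mmp14, Acvr2b and Acvrl1, were chosen after their values were seen. Higd1b, Des, Anpep, Vtn, Ndufa4l2, Ccl21a and Mmrn1 were also named outside the rule. Of 3 Schwann cell, 2 mesothelial and 5 smooth muscle genes tested, 0, 0 and 1 rose and 2, 0 and 0 fell. Single libraries moved these counts by at most 1 gene. The labels do not say which animal each library came from, so the tests measure variation among these libraries, some of which may be technical. Alternatives changed the pseudocount, filter, scaling, replicate term, weights and libraries. Some alleles of the KPCY genotype are not reported here.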

Additional observations from a re-analysis of the deposited data

How the results depend on the processing

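All 9 genes kept their direction under every alternative run, 17 for each gene and 16 for Fap, whose mean lies under the stricter filter of 50. Thy1 and Cspg4 passed and Mcam did not pass under all of theirs. Leaving out 1 library at a time gave log2 differences from 4.50 to 6.51 for Thy1, 2.84 to 4.53 for Pdpn, 1.14 to 2.25 for Fap, 3.07 to 5.03 for Dpt, 1.29 to 3.03 for Pi16, 2.13 to 2.74 for Cspg4, -2.04 to -1.21 for Rgs5, 0.020 to 0.81 for Mcam and 0.97 to 1.96 for Eng. It gave 4987 to 7300 called genes, 2134 to 3325 of them higher and 2853 to 3975 lower. Without EpCAM+ replicate 1 and EpCAM- replicate 3, 4369 genes were called, 1907 of them higher, with fewer samples. There Pdpn (3.37) lost its call, Dpt had 5.54 and Rgs5 had -2.20, and Fap (2.14), Pi16 (3.62) and Eng (2.38) gained one. For Thy1, Dpt, Pi16 and Eng, the libraries left out held the highest EpCAM+ and the lowest EpCAM- value. Leaving them out could only widen those differences. Quantile normalisation moved the median of all tested genes to 0.14, with 4241 higher and 3246 lower calls against 3197 and 3653, and Fap (1.85, adjusted p = 0.0337) and Eng (1.87, adjusted p = 0.0242) passed. The adjusted p lay between 0.00118 and 0.169 for Fap and between 0.00439 and 0.188 for Eng over all alternatives. With array weights Rgs5 had -1.30 (adjusted p = 0.0515, between 0.00130 and 0.0965 over all alternatives). With a replicate block, 7090 genes were called, and Pi16 (2.09, adjusted p = 0.00773) and Eng (1.54, adjusted p = 0.00439) passed. The numbers were not taken as pairs, since no label ties equal replicate numbers to the same tumour. The residuals of EpCAM+ and EpCAM- libraries with the same number correlated at 0.41, 0.044 and 0.165 for replicates 1, 2 and 3. EpCAM+ replicate 2 correlated best with EpCAM- replicate 3 (0.23). With 3 libraries per group, these correlations cannot decide whether the numbers mark pairs. The cause of these changes was not tested. Depth is unknown, so how it limits Fap, the lowest of the 9 genes, could not be read.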
